A study of Mus musculus with 64 samples.

Results

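The genes described here are 10 that carry the growth signal of insulin-like growth factor 1 (IGF1) through phosphoinositide 3-kinase (PI3K) in heart muscle, or that stand for growth of the heart under exercise: Igf1, Igf1r, Insr, Irs1, Irs2, Pik3ca, Akt1, Foxo3, Cebpb and Cited4. They are a list of gene names, and all 10 were among the 16913 genes of the deposited count table. The hearts came from male and female C57BL/6J mice that were either non-transgenic (nTG) or carried a transgene for cardiac troponin T lacking 1 glutamate (TG, cTnT-delta160E), a mouse model of hypertrophic cardiomyopathy. Sessions of high intensity interval training (HIIT) on a treadmill, 31 minutes long, were given 3 times a week for 6 weeks, alternating 4 fast bouts (85% of the mean speed reached in a graded test) with 4 slow ones (50%), and sedentary mice did not run. The sedentary nTG groups held 7 males and 8 females, the trained nTG groups 8 and 10, the sedentary TG groups 9 and 8, and the trained TG groups 8 and 6. The promoter that drives the transgene and the age of the mice are not given in the sources used here. The question was how the growth pathway's transcripts stood with genotype and with training, in each sex.

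In GENCODE M21 (GRCm38) these are protein-coding genes, counted whole. The ligand Igf1 lies at chr10:87858265-87937042 (plus), and the receptor genes Igf1r and Insr at chr7:67952827-68233668 (plus) and chr8:3122061-3279617 (minus). The adaptors Irs1 and Irs2 lie at chr1:82233101-82291416 (minus) and chr8:10984681-11008458 (minus), and the kinases Pik3ca and Akt1 at chr3:32397671-32468486 (plus) and chr12:112653821-112674884 (minus). The nuclear factors Foxo3, Cebpb and Cited4 lie at chr10:42181841-42276755 (minus), chr2:167688915-167690418 (plus) and chr4:120666572-120667820 (plus).

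IGF1 and insulin bind related receptor tyrosine kinases, which phosphorylate the insulin receptor substrates. The substrates recruit PI3K, its lipid product brings the kinase AKT to the membrane, and AKT keeps FOXO transcription factors out of the nucleus while it favours protein synthesis through mTOR. In the heart this route is known for the growth that follows exercise, and a lower level of the transcription factor C/EBP-beta with a higher level of its partner CITED4 has been described in endurance-trained mouse hearts. Transcript levels say nothing of phosphorylation, by which most of this pathway is switched.

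The library names of the gene table contradicted the labels, so each library was given the gene column that matched its lncRNA column best, over 389 transcripts that both tables hold. All 64 libraries found a column of their own (r from 0.599 to 0.863, next best at most 0.404), and 1 of them had the same name in both tables. With these columns 0 libraries contradicted the labelled sex or genotype, against 45 with the columns taken by name. Tnnt2, which counts endogenous and transgenic troponin T transcripts together, lay between 2561 and 3589 CPM (counts scaled to a common library size) in the nTG libraries and between 6538 and 11721 in the TG libraries. Gene totals ran from 34.6 to 67.1 M counts (M, megacounts). The blood markers of TG sedentary male replicate 5 summed to 4626 CPM, where the next highest library of its group had 1151. Every value below uses the matched columns. With the columns taken by name, 0 of the 10 genes passed the test in any of the 4 genotype comparisons or with training in TG males.

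Sequence just before the RefSeq start of the gene is shown for Irs1 and Irs2, because these related adaptors carry the same pair of motifs and Irs1 was called by genotype, and for Cited4, which was called with training. RefSeq's promoter table (GRCm38.p6) held 9 of the 10 genes, Insr being the one not in it. The 250 bases before each start are written 5′ to 3′ on the gene's strand, at chr1:82291440-82291689 (minus strand) for Irs1, chr8:11008930-11009179 (minus strand) for Irs2 and chr4:120666313-120666562 (plus strand) for Cited4. These RefSeq starts, from which positions are counted, lie 23 (Irs1), 471 (Irs2) and 9 bases (Cited4) upstream of the GENCODE M21 starts given above. Capitals mark the E-box CACGTG and the insulin response element core TGTTTTG in Irs1 and Irs2, and CCAAT and TATAAA in Cited4.
Irs1: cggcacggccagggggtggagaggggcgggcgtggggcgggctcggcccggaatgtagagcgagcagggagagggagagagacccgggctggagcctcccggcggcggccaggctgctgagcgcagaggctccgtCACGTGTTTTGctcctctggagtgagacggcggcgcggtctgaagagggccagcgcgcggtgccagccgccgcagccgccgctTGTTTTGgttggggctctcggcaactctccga
Irs2: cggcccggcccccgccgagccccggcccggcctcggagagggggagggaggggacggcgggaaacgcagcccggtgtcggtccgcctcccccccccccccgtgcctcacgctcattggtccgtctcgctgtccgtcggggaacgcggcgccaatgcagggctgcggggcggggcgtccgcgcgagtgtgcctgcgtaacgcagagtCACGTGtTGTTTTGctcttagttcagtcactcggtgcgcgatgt
Cited4: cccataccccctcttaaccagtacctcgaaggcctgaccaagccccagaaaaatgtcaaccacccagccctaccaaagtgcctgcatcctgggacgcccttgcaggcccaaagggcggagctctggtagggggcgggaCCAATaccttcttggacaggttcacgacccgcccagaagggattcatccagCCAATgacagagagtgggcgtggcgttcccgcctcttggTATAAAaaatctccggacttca
In Irs1 the E-box lay 115 to 110 bases before the start and ran into a response element core at 111 to 105, with a second core at 32 to 26. In Irs2 the E-box lay 44 to 39 bases before the start and the core 37 to 31. The E-box, which basic helix-loop-helix factors bind, was found in 6.02% of the 32851 promoter windows of this length and the core, to which FOXO factors are known to bind in other genes, in 5.56%, both strands counted. Both were in 0.295% of windows, and with starts at most 12 bases apart in 0.0213%, which were 7 windows: those of Irs1, Irs2, Irs4, Klf11, Pcbp1, Pyroxd1 and 1700019P21Rik. The pair and its distance were chosen after the sequences had been seen. Cited4 had CCAAT at 112 to 108 and 61 to 57 bases before its start (CCAAT is in 33.8% of windows, either strand) and TATAAA at 22 to 17 (12.4%). These matches describe letters, and binding was not measured.

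Transcript levels per length differed widely within the pathway. On the scale of CPM per kilobase of annotated exon (RPKM), the median over 64 libraries was highest for Akt1 (67.7) and Cebpb (53.6), followed by Foxo3 (30.7), Cited4 (27.3) and Insr (21.9). Irs1 stood at 10.6, Pik3ca at 6.56, Irs2 at 5.27, Igf1r at 4.47 and Igf1 at 1.61. The receptor for insulin was thus the more abundant of the receptor pair and Irs1 the more abundant of the adaptors. Neighbours in this order overlapped in their range over libraries, except Insr (18.7 to 25.4) with Irs1 (7.30 to 14.5) and Igf1r (3.69 to 5.61) with Igf1 (1.02 to 3.09). Levels from here on are in CPM, and differences are log2 fold changes with their standard error (SE) from edgeR's quasi-likelihood test, called at a Benjamini-Hochberg adjusted p under 0.05 over all genes.

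**Figure D1:**
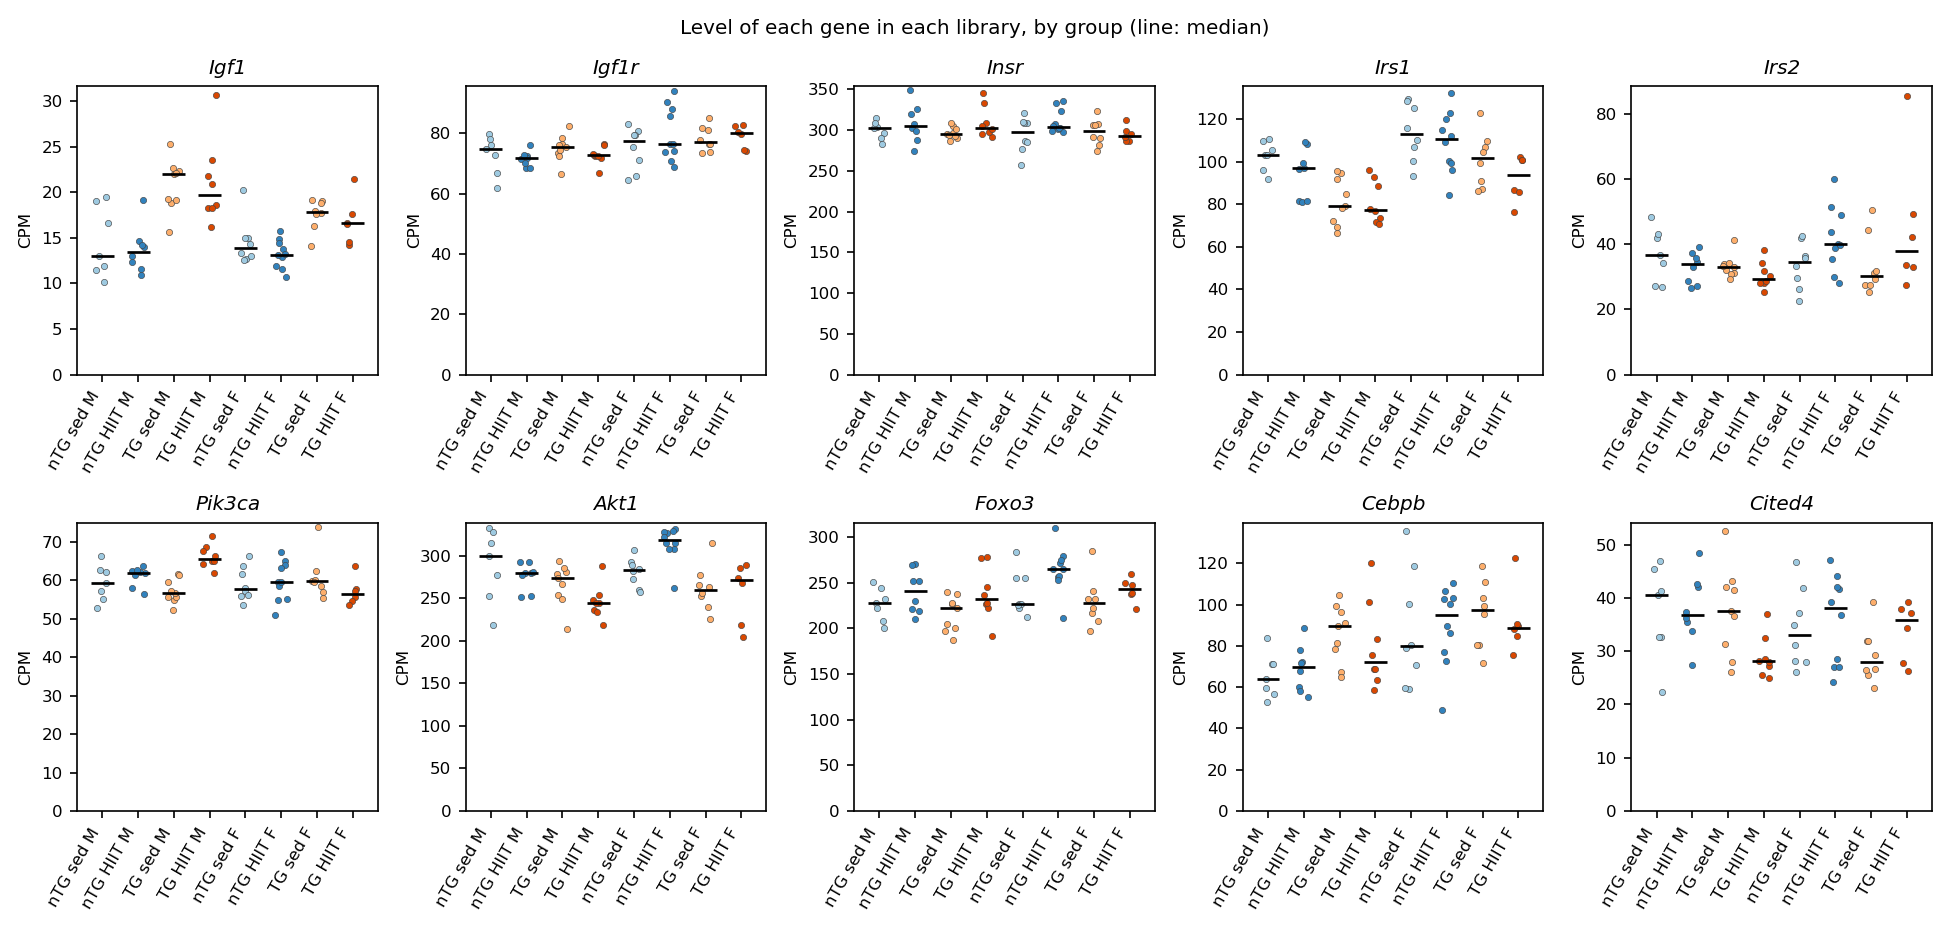
Level of each of the 10 genes in every library (vertical axis, CPM from 0; each point is 1 library, the bar is the group's median; sed, sedentary; M, male; F, female). Igf1 medians are higher in TG than in nTG groups in each sex, and all 8 Pik3ca values of trained TG males (62.0015 CPM or more) lie above those of sedentary TG males.

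Igf1, the ligand, was the gene of the set that differed most with genotype: it was higher in TG than in nTG hearts in sedentary males, trained males and trained females. In sedentary males the nTG libraries had 10.1, 12.98 and 19.5 CPM (lowest, median and highest of 7) and the TG libraries 15.6, 22.01 and 25.3 (of 9). All 9 TG libraries lay above the nTG median and 5 above the highest nTG library, so the groups overlapped in part. The difference was 0.52 on the log2 scale (SE 0.12, edgeR adjusted p = 0.00084). In trained males the levels were 10.9, 13.5 and 19.1 CPM in 8 nTG and 16.2, 19.7 and 30.6 in 8 TG libraries, a log2 difference of 0.61 (SE 0.12, edgeR adjusted p = 0.000151). All 8 TG libraries lay above the nTG median, 4 of them above every nTG library. Sedentary female nTG libraries had 12.6, 13.8 and 20.2 CPM and TG libraries 14.1, 17.8 and 19.1, with a log2 difference of 0.28 (SE 0.12) that did not pass (edgeR adjusted p = 0.186). Trained females had 10.7, 13.1 and 15.7 CPM in 10 nTG and 14.3, 16.6 and 21.5 in 6 TG libraries. Each of the 6 TG libraries lay above the nTG median, and the log2 difference was 0.35 (SE 0.12, edgeR adjusted p = 0.0384). That call was lost when any 1 of 8 libraries was left out (TG HIIT female replicates 2, 3, 5 and 6 and nTG HIIT female replicates 1, 3, 6 and 9), with an adjusted p of up to 0.153 without TG replicate 6. The replicate block, an added term for the replicate number that pairs numbers and not mice, gave an edgeR adjusted p of 0.0806. Whether the genotype difference depended on sex was tested directly and did not pass: females minus males was -0.24 in sedentary mice (edgeR adjusted p = 0.70) and -0.26 in trained mice (0.90). Averaged over the 4 strata, Igf1 was higher by 0.44 (SE 0.06, edgeR adjusted p = 9.2e-09). Training did not move Igf1 past the threshold in any group, with log2 differences of -0.08 and 0.01 in nTG and TG males and -0.13 and -0.06 in nTG and TG females.

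Markers of other cell types moved in the same comparisons as Igf1. All 8 fibroblast markers measured were higher in TG than in nTG sedentary males (median log2 difference 0.46), 5 of 8 in trained males (0.42), 1 of 8 in sedentary females (0.24) and 4 of 8 in trained females (0.38). Of 8 macrophage markers, 8, 6, 0 and 6 were higher in the same order, with medians of 0.65, 0.40, 0.15 and 0.38. The summed fibroblast markers ran from 1843 to 2673 CPM in nTG and from 2169 to 3022 in TG sedentary males, and the macrophage sum from 194 to 267 and from 255 to 434. Of 8 cardiomyocyte markers, 5, 2, 1 and 5 were lower in TG hearts, and each of the fibroblast and macrophage markers measured was above 0 in all 64 libraries. Blood markers were lower in TG hearts in trained males (5 of 6, median log2 difference -1.22, summed 573 to 1114 CPM in nTG and 260 to 555 in TG), where 2 of 3 Schwann cell markers were higher (0.73, summed 1.75 to 3.77 and 3.07 to 6.10 CPM). In sedentary males 1 of 6 blood markers was higher (median 0.63), as were 1 of 3 adipocyte (1.62) and 1 of 3 lymphocyte markers (0.26), but without TG sedentary male replicate 5 none of these was called and the blood median was -0.21, while 8 of 8 fibroblast and 8 of 8 macrophage markers were still higher (0.43 and 0.63). In trained males 1 of 6 endothelial markers was lower (-0.08), and in females 0 of 6 blood markers were called. None of the 3 atrial markers was called by genotype, but their sum varied widely within groups, from 2.10 to 136 CPM in nTG and from 1.55 to 209 in TG trained males. The highest Igf1 library had the highest fibroblast sum of its group in 6 of 8 groups, and the highest atrial sum as well in 5 of them, the 4 nTG groups and trained TG males. It also had the highest adipocyte and macrophage sums in sedentary nTG, trained nTG and trained TG males, and the highest adipocyte sum in trained nTG females. In the other groups another library was highest for these cell types. In sedentary nTG males the highest Igf1 library was replicate 5 (atrial 239 CPM, next 72.5), without which the Igf1 difference was 0.62 (edgeR adjusted p = 0.00014). In trained males the highest Igf1 libraries were nTG replicate 6 and TG replicate 4. The Igf1 difference there was 0.70 without the first (edgeR adjusted p = 2.46e-05) and 0.52 without the second (0.00155). With training in TG males 4 of 8 macrophage and 2 of 8 fibroblast markers were lower (median log2 differences -0.24 and -0.21). Igf1 was at 0.01 there (edgeR adjusted p = 0.955). In bulk tissue more cells of a type and more RNA per cell cannot be told apart, and the part of these markers' cells in the Igf1 difference was not tested. Nor was their part tested in the genotype differences of the other genes given below. After the group means were taken out, the genes most like Igf1 over the 64 libraries were Antxr1 (r = 0.768), Dpt (0.762) and Ccdc80 (0.757), which encode a collagen-binding receptor and proteins of the extracellular matrix. These correlations are descriptions over libraries that share their depth and tissue sampling.

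**Figure D2:**
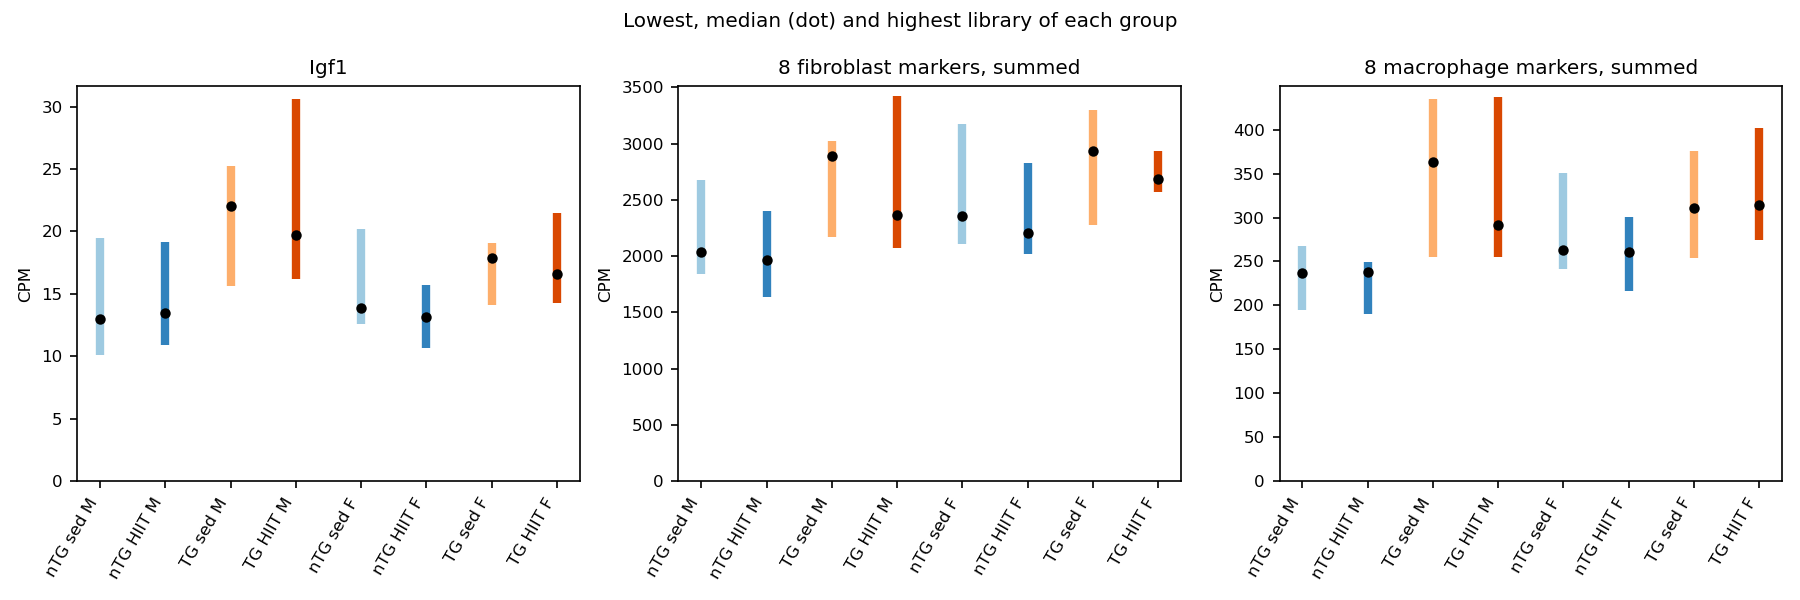
Igf1 (left) beside the summed level of 8 fibroblast markers (middle) and 8 macrophage markers (right) in each group (vertical axes, CPM from 0; bars run from the lowest to the highest library, the dot is the median). In sedentary males the median of Igf1 is 12.98 CPM in nTG and 22.01 in TG, and the macrophage median is 237 and 364.

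The receptors did not pass the test anywhere. Igf1r, the IGF1 receptor, had group medians from 71.7 CPM in trained nTG males to 80.1 in trained TG females, and the 95% intervals of all 8 differences lay between -0.15 and 0.19 on the log2 scale. Insr, the insulin receptor, had medians from 293 CPM in trained TG females to 305 in trained nTG males, with intervals between -0.16 and 0.15. All 10 trained nTG female libraries lay above the sedentary nTG female median for Insr, but the log2 difference of 0.08 did not pass (edgeR adjusted p = 0.333).

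Among the adaptors, Irs1 was lower in TG hearts, and Irs2 was not called in any comparison. In sedentary males Irs1 stood at 91.8, 103 and 111 CPM in nTG and at 66.7, 79.2 and 95.9 in TG libraries. All 9 TG libraries lay below the nTG median, 7 of them below the lowest nTG library, and the log2 difference was -0.34 (SE 0.08, edgeR adjusted p = 0.00242). With Igf1 this made 2 of the 10 genes called by genotype in sedentary males, where 20.6% of all genes were called. In trained males Irs1 had 81.3, 97.0 and 109 CPM in nTG and 70.8, 77.3 and 96.1 in TG libraries, with all 8 TG libraries below the nTG median, but the log2 difference of -0.22 did not pass (edgeR adjusted p = 0.07). Igf1 was thus the 1 gene of 10 called in trained males, against 14% of all genes. That count was 2 without any 1 of 6 libraries (TG sedentary male replicate 5, TG HIIT male replicates 1, 3, 5 and 7 and nTG HIIT male replicate 8) and 3 without nTG HIIT male replicate 3. In sedentary females the log2 difference of Irs1 was -0.17 (edgeR adjusted p = 0.294), and 0 of the 10 genes were called against 4.37% of all genes. Trained females had 84.4, 111 and 132 CPM in nTG and 76.4, 93.8 and 102 in TG libraries, a log2 difference of -0.24 (SE 0.09) with an edgeR adjusted p of 0.0494. This last call sat at the threshold: it was lost without any 1 of 12 of the 17 libraries left out in turn (nTG HIIT female replicates 1, 4, 5, 6, 8 and 10, TG HIIT female replicates 2 to 6 and TG sedentary male replicate 5, up to 0.186 without TG HIIT female replicate 3) and with the replicate block (0.107). The mean over the 4 strata was -0.24 (SE 0.04, edgeR adjusted p = 4.15e-06). By residual level over the 64 libraries, Irs1 was most like Gstm7 (r = 0.64), Noa1 (0.616) and Acsl3 (0.595).

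Irs2, the adaptor whose promoter pairs the same motifs as that of Irs1, varied more between mice. Trained TG females ran from 27.4 to 85.3 CPM around a median of 37.9, and sedentary TG females from 25.3 to 50.6 around 30.3. The training difference in TG females was 0.43 on the log2 scale (SE 0.17), with an unadjusted edgeR p of 0.0118 and an adjusted p of 1.0. Without replicate 3, the trained library at 85.3 CPM, it was 0.15 (SE 0.16, unadjusted edgeR p = 0.344). In nTG females it was 0.31 (SE 0.15, edgeR adjusted p = 0.321), with 8 of 10 trained libraries above the sedentary median. Males gave -0.17 and -0.12 in nTG and TG. The difference between the sexes was 0.48 in nTG (edgeR adjusted p = 0.754) and 0.55 in TG mice (0.177), and neither passed.

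Pik3ca, the catalytic alpha subunit of PI3K, was higher after training in TG males, and this was the 1 comparison in which libraries of a gene of the set did not overlap between groups. The 9 sedentary TG males had 52.3, 56.8 and 61.7 CPM and the 8 trained TG males 62.0015, 65.7 and 71.7. Groups without overlap occurred for 1.09% of all genes in this comparison. The log2 difference was 0.21 (SE 0.05, edgeR adjusted p = 0.00268), and it kept its call in each of the 17 fits that left out a library (adjusted p at most 0.0127). Without TG sedentary male replicate 5 it was 0.20 (edgeR adjusted p = 0.00734). In the 7 other comparisons of a pair of groups, 0 of the 10 genes were without overlap (2.10%, 1.82%, 0.520% and 2.57% of all genes by genotype, in the order sedentary males, trained males, sedentary females, trained females, and 0.106%, 0.0237% and 0.0473% with training in nTG males, nTG females and TG females). Elsewhere the training difference was 0.04 in nTG males, 0.02 in nTG females and -0.09 in TG females, none of them called. The training difference of TG females minus that of TG males was -0.30 (SE 0.07), with an unadjusted edgeR p of 9.3e-05 and an adjusted p of 0.0759, and DESeq2 called it at 0.0285. No gene of 16913 passed that comparison of the sexes with edgeR, while 3063 had an unadjusted p under 0.05. Without TG HIIT male replicate 4, TG sedentary female replicate 4 or TG HIIT female replicate 6 the number that passed was 460, 416 and 904. TG minus nTG among males was a log2 difference of -0.05 when sedentary and 0.12 when trained, and neither was called. A gene model on the same strand, Gm37123, overlaps Pik3ca in GENCODE M21, so reads could be split between them. Residual levels of Pik3ca were most like those of Rb1cc1 (r = 0.796), Tmem106b (0.76) and Erbin (0.758).

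Akt1, the kinase downstream of PI3K, was lower in TG than in nTG trained females. The 10 nTG libraries had 262, 318 and 331 CPM and the 6 TG libraries 204, 271 and 289. All 6 TG libraries lay below the nTG median and 2 below the lowest nTG library. The log2 difference was -0.29 (SE 0.07, edgeR adjusted p = 0.00271), called in each of 17 fits without a library. In this comparison 5 of 8 cardiomyocyte markers were lower too (median log2 difference -0.18), and 4 of 8 fibroblast and 6 of 8 macrophage markers were higher. The part of these markers' cells in the Akt1 difference was not tested. Igf1, Irs1 and Akt1 were thus called in trained females, 3 of 10 genes against 14.8% of all genes. Elsewhere the genotype difference was -0.12 in sedentary males, -0.16 in trained males and -0.10 in sedentary females, none called, and the mean of the 4 strata was -0.17 (SE 0.03, edgeR adjusted p = 4.84e-05). Training in nTG females gave 0.16 (SE 0.06, edgeR adjusted p = 0.226), with 9 of 10 trained libraries above every sedentary library, whose range was 258 to 307 CPM. Akt1 was most like Ulk1 (r = 0.737), Ppp1r37 (0.695) and Pgls (0.689) in residual level.

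Foxo3, the transcription factor that AKT holds out of the nucleus, was not called in any comparison. Its group medians ran from 223 CPM in sedentary TG males to 265 in trained nTG females. The training differences were 0.09, 0.14, 0.15 and 0.08 in nTG males, TG males, nTG females and TG females, with edgeR adjusted p of 0.125 or more. Averaged over sexes they were 0.12 in nTG (SE 0.05, adjusted p = 0.251) and 0.11 in TG mice (SE 0.05, adjusted p = 0.202).

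The pair tied to exercise growth, Cebpb and Cited4, was not called with training in nTG hearts. Cebpb encodes C/EBP-beta, and its training differences were 0.07 in nTG males and 0.03 in nTG females (edgeR adjusted p = 0.984 and 0.95), with 95% intervals from -0.23 to 0.37 and from -0.25 to 0.31. Cited4 gave 0.02 and 0.07, with intervals from -0.27 to 0.31 and from -0.20 to 0.33. These intervals still hold changes of up to 0.37 on the log2 scale. In TG males Cited4 was lower after training: sedentary libraries had 26.1, 37.6 and 52.6 CPM and trained ones 24.99, 28.1 and 36.96. All 8 trained libraries lay below the sedentary median, and the log2 difference was -0.38 (SE 0.14, edgeR adjusted p = 0.0439). With Pik3ca this made 2 of the 10 genes called with training in TG males, against 18% of all genes. The Cited4 call was lost without any 1 of 11 of 17 libraries (TG sedentary male replicates 1, 2, 3, 6 and 9 and TG HIIT male replicates 1, 2, 5, 6, 7 and 8, up to 0.114 without TG sedentary male replicate 6), with limma voom (0.0617) and with the replicate block (0.0604). In TG females the Cited4 difference was 0.21 (SE 0.15), and females minus males was 0.58 (SE 0.20, unadjusted edgeR p = 0.00544, adjusted p = 0.119).

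By genotype, Cebpb was not called in a single stratum. Sedentary males came closest, with 52.9, 64.2 and 84.0 CPM in nTG and 65.0, 89.7 and 105 in TG libraries, a log2 difference of 0.39 (SE 0.15, edgeR adjusted p = 0.0531) and all 9 TG libraries above the nTG median. The mean of the 4 strata was 0.19 (SE 0.07, edgeR adjusted p = 0.0375), a call lost without any 1 of 11 of 64 libraries. Cited4 was at -0.39 in trained males (SE 0.14, edgeR adjusted p = 0.0509), and its mean over strata was -0.17 (SE 0.07, edgeR adjusted p = 0.0454), lost in 38 of 64 fits without a library. In all, 5 of the 10 genes were called in the mean of the strata (Igf1, Irs1, Akt1, Cebpb and Cited4), where 39% of all genes were. Cebpb shares its position with Tmem189 on the other strand in GENCODE M21, and no source here states whether counting used strand. Cited4 was most like Nup62 (r = 0.853), Pkdcc (0.755) and Vegfa (0.752) in residual level.

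**Figure D3:**
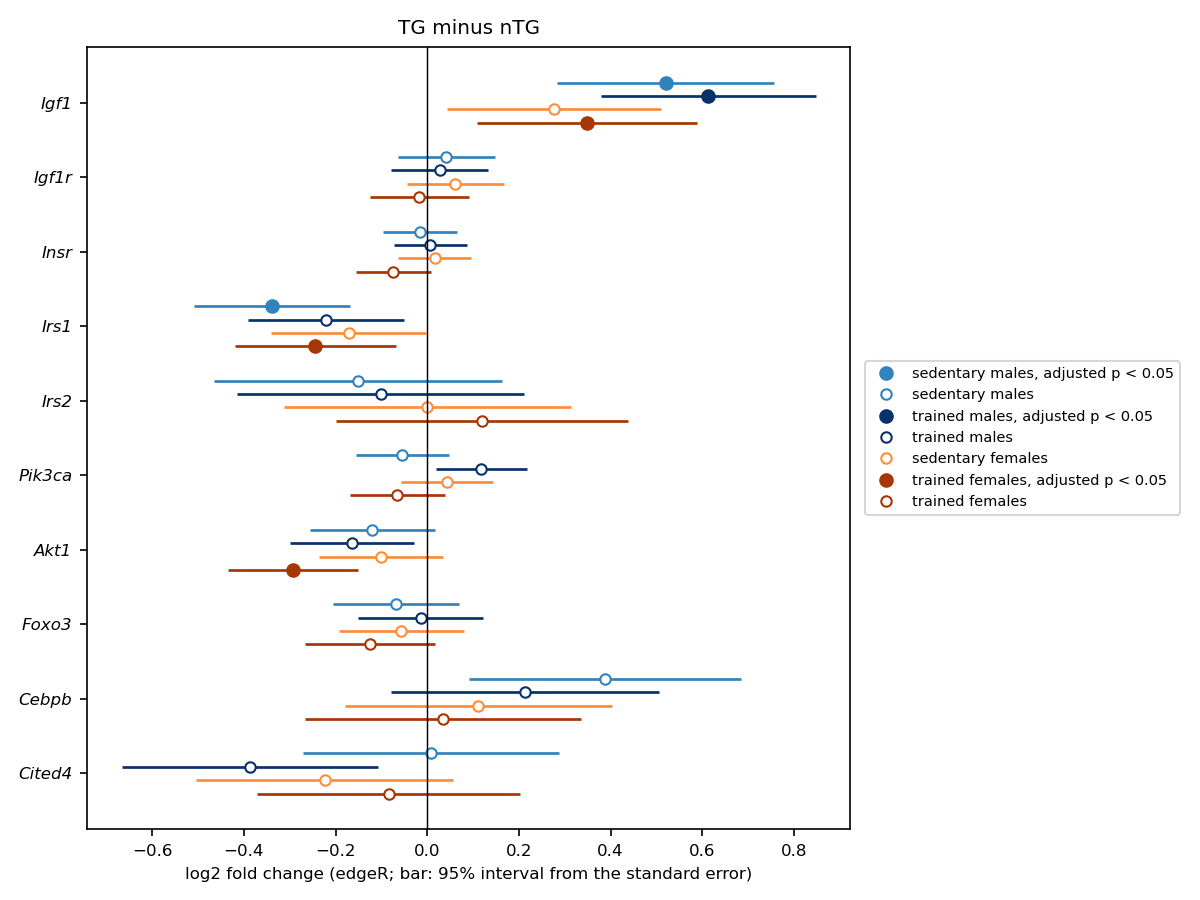
Genotype difference of each gene in 4 strata (horizontal axis, log2 fold change, TG minus nTG; bars are 95% intervals; filled points passed the test at an adjusted p under 0.05). Igf1 lies to the right of 0 in each stratum, from 0.28 to 0.61, and Irs1 to the left, from -0.34 to -0.17, while the receptors lie near 0.

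**Figure D4:**
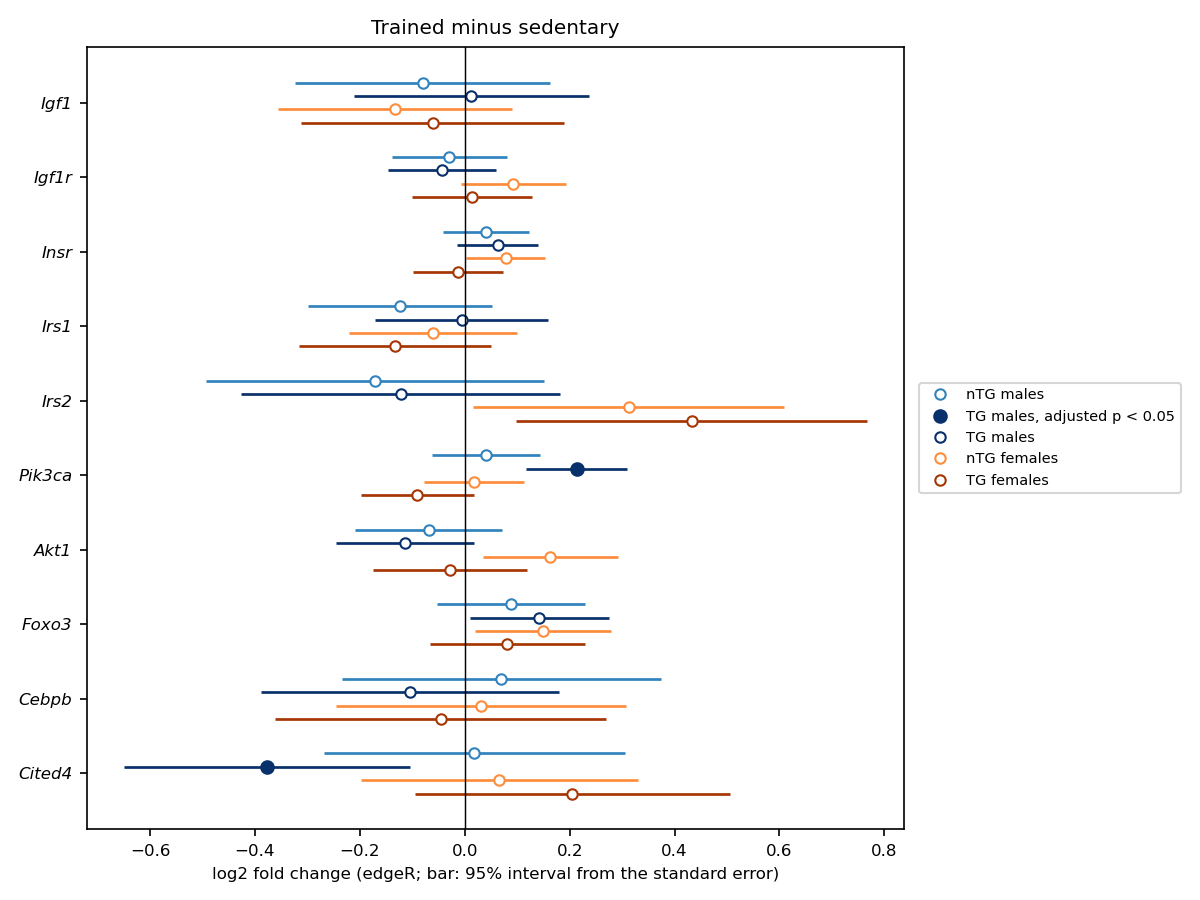
Training difference of each gene in 4 strata (horizontal axis, log2 fold change, trained minus sedentary; bars are 95% intervals; filled points passed the test). The filled points are Pik3ca at 0.21 and Cited4 at -0.38 in TG males.

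Beyond TG males, training called 0 of the 10 genes in nTG males (0% of all genes, 999 with an unadjusted p under 0.05 by edgeR), 0 in nTG females (0.148%, or 25 genes, which ran from 0 without nTG sedentary female replicate 3 or 4 to 62 without nTG HIIT female replicate 4) and 0 in TG females (0%, 606 with an unadjusted p under 0.05). DESeq2 and limma voom also called 0 of the 10 in these 3 comparisons. In nTG females 2406 of 16913 genes had an unadjusted edgeR p under 0.05. Of the 10 genes, 0 were under it in nTG males, 4 in nTG females (Akt1, Foxo3, Irs2 and Insr, each higher) and 1 in TG females (Irs2). No pairwise interaction (genotype by training, training by sex or genotype by sex) called any gene of the set with edgeR. Genotype by training in males was 0.17 for Pik3ca (edgeR adjusted p = 0.246) and -0.40 for Cited4 (0.337). In TG males 6 of 6 blood markers were lower after training (median log2 difference -1.46), as were 4 of 8 macrophage, 2 of 8 fibroblast, 2 of 6 endothelial and 1 of 6 mural markers (-0.05), while 2 of 8 cardiomyocyte and 1 of 3 Schwann cell markers (0.65) were higher. Without TG sedentary male replicate 5, 3 of 6 blood markers were lower (-0.65), as were 4 of 8 macrophage, 1 of 8 fibroblast, 2 of 6 endothelial and 1 of 6 mural markers, and 1 of 8 cardiomyocyte and 0 of 3 Schwann cell markers were higher. Their part in the Pik3ca and Cited4 differences was not tested.

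A list of 69 other genes of the pathway, ordered by role, had 68 members measured. In sedentary males 9 were higher and 10 lower in TG hearts, beside 20.6% of all genes called (median log2 difference -0.03, against -0.01 over all genes), in trained males 6 and 8, beside 14% (-0.02 against 0.01), in sedentary females 3 and 3, beside 4.37% (0.02 against 0.00), and in trained females 3 and 15, beside 14.8% (-0.08 against 0.00). The 6 called in sedentary females became 3 without nTG sedentary female replicate 3 or 7, and the 18 in trained females became 11 without TG HIIT female replicate 3. Of the 8 ligand, binding protein and related protease genes measured, 4 were higher and 0 lower in sedentary males, 3 and 0 in trained males, 0 and 1 in sedentary females (Nrg1, given below) and 2 and 0 in trained females. Igfbp6 had 8.85, 10.9 and 14.6 CPM in nTG and 11.9, 21.7 and 26.8 in TG sedentary males, a log2 difference of 0.87 (SE 0.15, edgeR adjusted p = 2.79e-05). Igfbp5, another protein that binds IGFs, gave 0.63 (SE 0.11, edgeR adjusted p = 3.0e-05). In trained males Pappa, a protease that frees IGF1 by cutting its binding proteins, was higher by 0.74 (SE 0.16, edgeR adjusted p = 0.000617), at 1.46 to 3.05 CPM in nTG and 2.89 to 4.66 in TG libraries. Trained females had higher Igfbp4 (0.36) and Igfbp7 (0.31), calls that were lost without any 1 of 6 and of 11 libraries (edgeR adjusted p up to 0.115 and 0.126, both without TG HIIT female replicate 3). The fibroblast markers given above moved with these genes, and their part was not tested.

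Of 7 other receptor and adaptor genes, 1 was higher (Grb10), 1 lower (Grb14) and 5 not called with genotype in each of the 4 strata. The share of all genes called by genotype was 20.6% (sedentary) and 14% (trained) for males, and 4.37% (sedentary) and 14.8% (trained) for females. Grb10, which restrains insulin and IGF1 receptor signalling and was named for sedentary males after its value was seen, was higher in TG hearts in all 4 strata, which share no libraries, by 0.27, 0.25, 0.24 and 0.23 on the log2 scale (sedentary males, trained males, sedentary females, trained females; edgeR adjusted p from 0.000543 to 0.00704). In trained females the 6 TG libraries ran from 98.7 to 104 CPM and the 10 nTG libraries from 76.2 to 96.9, without overlap, as for 2.57% of all genes. Grb14, a related adaptor that inhibits the insulin receptor, was lower in all 4, by -0.38, -0.22, -0.21 and -0.31 (edgeR adjusted p from 1.0e-05 to 0.0363). Its call in trained males was lost without nTG HIIT male replicate 5 (0.0765) or TG HIIT male replicate 4 (0.0524), and in sedentary females without any 1 of 7 libraries (up to 0.101). Sedentary TG males had 82.8, 97.2 and 114 CPM of Grb14, below all 7 nTG libraries, which started at 120.5, and 2.10% of all genes did not overlap there.

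Within the PI3K and nuclear arms, Pik3cg, the gamma catalytic subunit known from white blood cells, was higher in TG males by 0.61 when sedentary and 0.48 when trained (SE 0.12 in both, edgeR adjusted p = 0.000149 and 0.00384). Macrophage markers were higher in the same comparisons, and their part was not tested. Myocd, a coactivator of serum response factor, was lower in all 4 strata by -0.27, -0.32, -0.28 and -0.33 (edgeR adjusted p from 0.00068 to 0.00692). Trim63, a muscle ubiquitin ligase and FOXO target, was lower by -0.22 in sedentary males and -0.25 in trained females (edgeR adjusted p = 0.00178 and 0.000947), and Mtor by -0.16 in trained males (0.0117). In sedentary females Akt1s1 (0.24), Deptor (0.17) and Nrg1 (-0.82) also passed, with adjusted p from 0.0197 to 0.0445. Each of these 3 calls was lost in some fits without a library, 2, 6 and 11 of 17 in that order.

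With training in TG males, 9 pathway genes were higher and 9 lower of 68, beside 18% of all genes called (median log2 difference 0.03 against 0.00 over all genes). Without TG HIIT male replicate 7 the 18 became 10, and the 3036 genes called in all became 1702. Of 7 PI3K subunit genes, Pik3ca included, 3 were higher and 4 were not called (Pik3r2 at -0.13, Pik3cd at -0.19, Pik3cg at -0.18 and Pik3r3 at 0.06, named after their values were seen). Pik3r1 was higher by 0.31 (SE 0.07, edgeR adjusted p = 0.00202) and Pik3cb by 0.18 (SE 0.05, adjusted p = 0.0108), beside Pik3ca. Rps6kb1, a ribosomal S6 kinase below mTOR, was higher by 0.17 (edgeR adjusted p = 0.00583), while its relative Rps6kb2 was lower by -0.23 (0.0104). Gsk3a, a kinase that AKT inhibits, was lower by -0.19 (0.00553) and Igfbp7 by -0.39 (0.00706). In the 3 other training comparisons 0 of the 68 passed, with 3 in nTG males, 21 in nTG females and 4 in TG females at an unadjusted edgeR p under 0.05, beside 999, 2406 and 606 of all 16913 genes.

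Pik3r1, which encodes the main regulatory subunit of PI3K, was the pathway gene whose training difference was called in both genotypes when the sexes were averaged. It had medians of 192 and 229.96 CPM in sedentary and trained nTG males, 157 and 195 in TG males, 196 and 227 in nTG females, and 179 and 194 in TG females. The mean training difference was 0.22 in nTG (SE 0.05, edgeR adjusted p = 0.0352) and 0.23 in TG mice (SE 0.05, adjusted p = 0.0296), where 0.384% and 0.520% of all genes were called. Those shares were unstable: the 65 genes called in nTG ran from 5 (without nTG sedentary male replicate 6 or nTG sedentary female replicate 4) to 133 (without nTG sedentary female replicate 6), and the 88 in TG from 0 (without TG HIIT male replicate 2 or TG HIIT female replicate 6) to 1555 (without TG sedentary female replicate 7). In nTG mice Pdpk1, the kinase that activates AKT, passed too (0.13, adjusted p = 0.0282). These 2 genes were named after their values were seen. The nTG call of Pik3r1 was lost without any 1 of 8 libraries (up to 0.0781 without nTG sedentary female replicate 4), that of Pdpk1 without any 1 of 6 (up to 0.0781), and the TG call of Pik3r1 without TG HIIT male replicate 2 (0.0549) or TG HIIT female replicate 6 (0.10). By genotype Pik3r1 was lower in sedentary TG males by -0.27 (SE 0.07, edgeR adjusted p = 0.00266), a comparison that shares its TG libraries with that of training in TG males. With the gene columns taken by name, the nTG training difference of Pik3r1 was -0.23 (adjusted p = 0.0207), opposite in direction.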

How the data were processed

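Total RNA of 64 hearts was depleted of ribosomal RNA and sequenced, per the labels' protocols. The authors deposited a table of raw counts for 16913 genes by Ensembl identifier, and a table of expected counts for 3787 lncRNA transcripts, of which 45 rows held fractions. The submitters' processing notes name cutadapt 2.3, FastQC 0.11.8, MultiQC 1.7, STAR 2.7.8a, RSEM 1.3.3 and the build GRCm38/mm10, with no role or order. The lowest mean of any gene in the table was 10.5 counts, so filterByExpr removed none. Symbols and positions came from GENCODE M21, which matched 16887 identifiers.

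Library names of the gene table were replaced by the match to the lncRNA table: log2 CPM with a pseudocount of 0.5 was centred on each transcript's mean, and Pearson's r was taken over 389 shared autosomal transcripts averaging 20 counts or more. The same 64 pairs came from either part of a random split of the transcripts, from Spearman's correlation and from a minimum mean of 100 counts. Counts were tested in R 4.3.3 with edgeR 4.0.16 (quasi-likelihood F test, TMM scaling) in 1 model of 8 group means with 56 residual degrees of freedom. SE is the log2 fold change divided by the square root of F, and 95% intervals use it. Alternatives were DESeq2 1.42.0, limma 3.58.1 voom, median-of-ratios size factors, other filters, fits of 1 sex, a replicate block, columns by name, and leaving out each library. On simulated tables for training in TG males (16913 genes, 200 changed), 47% of changes of 0.25 log2 units were recovered, 80.5% of 0.5 and 99% of 1. At 0.25 the simulated table had 96 genes called, where the data had 3036 in this comparison. The adjusted p thus set another cut-off, so these shares are not the recovery in the data. No other comparison was simulated.

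The labels call the samples biological replicates. The 10 genes and all lists were chosen with earlier results of these data known. Pathway genes named are at most the 3 higher and 3 lower with the smallest p in each comparison of a pair of groups, with those named otherwise said so. The genes called most like another are the 3 with the highest residual r among genes with a mean of at least 50 counts.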

Additional observations from a re-analysis of the deposited data

Results flagged for a closer look

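Among 80 sets of values (10 genes in 8 groups), 6 had a single library far from the rest of its group by Dixon's criterion, where chance alone gives about 4. Igf1 stood at 19.1 CPM in nTG HIIT male replicate 6, above the 10.9 to 14.7 of the 7 others, and at 20.2 in nTG sedentary female replicate 4, above the 12.6 to 14.99 of the 7 others. Both libraries also had the highest summed fibroblast markers of their groups (2401 CPM, next 2227, and 3175, next 2586) and the highest summed atrial markers (136, next 69.4, and 137, next 41.7). The male library had the highest adipocyte (12.8 CPM, next 4.59) and macrophage sums (249.3, next 247.3) of its group as well. The female library had the highest lymphocyte (2.04 CPM, next 1.72) and blood sums (724.5, next 723.9). The part of these markers in the Igf1 values was not tested. Irs2 was 41.2 CPM in TG sedentary male replicate 2 (others 29.3 to 34.2), and Pik3ca was 73.9 in TG sedentary female replicate 7 (others 55.4 to 62.5). Akt1 was low in nTG HIIT female replicate 4, at 262.0 CPM against 307 to 331 in the 9 others. Cebpb was high in TG HIIT female replicate 3, at 123 CPM against 75.8 to 90.7 in the 5 others. That library also had the highest Irs2 (85.3 CPM) and the highest sums of its group for fibroblast (2938 CPM, next 2753), macrophage (402, next 351), blood (611, next 450.2), adipocyte (7.04, next 5.15), lymphocyte (5.23, next 1.31), Schwann cell (4.35, next 4.28) and atrial markers (42.98, next 31.5), whose part was not tested. The low Akt1 library had the highest endothelial (1134 CPM, next 1063) and mural sums (1114, next 918) of its group.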

How the results depend on the processing

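Main counts of the 10 genes called were 2, 1, 0 and 3 by genotype (sedentary males, trained males, sedentary females, trained females), 2 with training in TG males, 5 for the genotype mean, and 0 elsewhere. With columns by name they were 0 in each of these genotype comparisons, in their mean and in training in TG males, and 2 (Igf1 at 0.38 and Irs1 at -0.24) in training of nTG mice averaged over sexes. By name, the sign also turned for Igf1 (-0.0514), Grb10 (-0.0861), Pik3cg (-0.16), Myocd (0.20) and Grb14 (0.0843) by genotype in trained males, Grb10 (-0.0758), Grb14 (0.0217) and Trim63 (0.11) in trained females, Trim63 in sedentary males (0.0156) and Cited4 in the genotype mean (0.0038). For training it turned for Pik3r1 (-0.0095), Igfbp7 (0.0491) and Rps6kb2 (0.0192) in TG males, for Pdpk1 (-0.0351) and Pik3r1 (-0.23) in nTG and Pik3r1 (-0.0156) in TG mice averaged over sexes. The genotype count in trained males was 2 with DESeq2, with genes averaging 50 counts or more and with the replicate block, and 3 with 1 sex fitted; Cited4 (-0.39, adjusted p = 0.0509) passed in each. Training in TG males gave 1 with limma voom and 1 with the replicate block, the block gave 1 by genotype in trained females, and DESeq2 called 1 gene (Pik3ca) where training in TG was compared between sexes. Irs1 in trained females missed the threshold with median-of-ratios factors (0.0615), genes averaging 50 counts or more (0.0715) and 1 sex fitted (0.0702). Leaving out each library gave counts of 2 to 3, 1 to 3, 0 to 0 and 1 to 3 by genotype, 1 to 3 for training in TG males, 3 to 5 for the genotype mean, 0 to 1 for training between sexes in TG, and 0 to 0 in the others. For training between sexes in TG 1 gene was called without TG HIIT male replicate 4, TG sedentary female replicate 4 or TG HIIT female replicate 6. Same-numbered libraries deviated together with r from -0.171 to 0.204, and at most 2 libraries in a comparison matched their own number best, so the replicate block pairs numbers, not mice. Why settings moved a call was not tested. Depth was 34.6 M counts or more per library. A log2 change of 0.25 in TG males was recovered in 47% of cases on simulated data with 200 genes changed, which is not the recovery in the data.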
